A study of Drosophila melanogaster with 2 samples.

Results

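The vacuolar ATPase (V-ATPase) subunit genes of Drosophila melanogaster are described here by where ChIP-seq peaks of the transcription factor kay were called near them in whole adult males. They were taken as the protein-coding genes whose symbol starts with Vha in the Ensembl annotation of the genome build dm6, and they number 33 of 13958 protein-coding genes. The choice used the symbols and no measured value. By subunit, 13 encode parts of the V1 sector, 18 parts of the V0 sector and 2 accessory proteins. ATP6AP2, another V-ATPase accessory gene, lacks the prefix and was not counted. The libraries come from 2 biological replicates, numbered 1 and 3, of a single group, flies of the strain kay-GFP, which carries a transgene for kay with GFP at its C-terminal end (kay-eGFP). Both were male adults of unknown age, taken as whole organisms, and chromatin sheared by sonication to 200 to 800 bp was precipitated with an anti-GFP antibody. No unmodified strain, other antibody or input library was analysed here, and a whole-fly signal cannot be assigned to a tissue.

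V-ATPases are rotary proton pumps. The V1 sector in the cytosol hydrolyses ATP on its A and B subunits, and the V0 sector in the membrane passes protons through a ring of c subunits that turns against the a subunit. In flies the pump acidifies lysosomes, endosomes and synaptic vesicles, and in the plasma membrane of Malpighian tubule cells it drives the secretion of ions. Many subunits have 1 gene that is used in most tissues and further paralogs of restricted use, many of them in the testis. kay is the fly Fos protein, a bZIP factor that dimerises with Jra, the fly Jun, to form AP-1, whose best-known site is TGACTCA. The palindrome TCACGTGA is the core of a site known for the MITF and TFEB family, whose fly member Mitf is known as a regulator of V-ATPase genes.

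Stretches around 3 of the kay summits described below are printed from the Release 6 sequence (dm6), 5′ to 3′ on the strand of the Vha gene. They were chosen after the values were seen, because each holds or lies beside a recognisable site. The first is chr2L:12975224-12975401, plus strand, the whole interval between an untranslated exon of Vha68-2 and the next start of the same gene, where both replicates had a summit. The second is chr3R:18394388-18394568, minus strand, in an intron of Vha100-2, and the third is chr3R:12628543-12628823, minus strand, upstream of Vha55. Both of these surround a replicate 3 summit, which lies at the centre. Capitals mark TCACGTGA in the first and TGACTCA, read on either strand, in the other two.
Vha68-2: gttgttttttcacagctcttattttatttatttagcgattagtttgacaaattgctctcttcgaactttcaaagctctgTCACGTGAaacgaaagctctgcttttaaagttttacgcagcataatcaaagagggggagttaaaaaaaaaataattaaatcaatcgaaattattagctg
Vha100-2: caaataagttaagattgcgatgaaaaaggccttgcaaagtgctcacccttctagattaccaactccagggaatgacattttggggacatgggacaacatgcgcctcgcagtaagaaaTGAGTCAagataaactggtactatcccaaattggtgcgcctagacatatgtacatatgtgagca
Vha55: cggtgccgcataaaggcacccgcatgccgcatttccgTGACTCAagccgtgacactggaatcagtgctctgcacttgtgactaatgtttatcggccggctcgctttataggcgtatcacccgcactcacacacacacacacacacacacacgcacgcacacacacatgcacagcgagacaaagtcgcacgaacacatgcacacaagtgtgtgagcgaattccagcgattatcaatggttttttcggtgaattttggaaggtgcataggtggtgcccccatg

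A peak list gives for each peak a summit, the authors' signal and the authors' q-value. On dm6 the replicate 1 list held 2060 peaks, the replicate 3 list 13835, the list called on both replicates pooled 4350, and the list kept after irreproducible discovery rate thresholding, which the authors named optimal, 199. The authors named the pooled list as peaks and background, the input for that thresholding. A q-value of 0.05 or less, as the authors gave it, was held by 185 peaks in replicate 1, by 478 in replicate 3 and by 327 in the pooled list. Most peaks of each of these lists thus had a higher q-value. A kay summit below is a called position, and whether kay was bound at each was not tested. The scale of the signal differs between lists, so signals and ranks are given within a list, rank 1 being the highest signal. How many reads stand behind each list is not known here. In what follows, a gene is counted when a summit lay within 1 kb of any of its annotated transcription starts.

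kay summits were found at the starts of few V-ATPase genes, and their share was near or below that of other protein-coding genes in each of the 4 lists. In replicate 1 the gene counted was Vha68-2 (A subunit), 1 of 33 V-ATPase genes or 3.03%, against 6.73% of the 13925 other protein-coding genes. In replicate 3 there were 8 of 33, or 24.2%, against 27.3% of the others. In the pooled list there were 2 of 33, Vha68-2 and Vha16-1 (c subunit), or 6.06%, against 11.1%. In the optimal list there was none of 33, which allows a share of up to 9.09%, against 0.991% of the others. The 95% Wilson intervals of the V-ATPase shares ran from 0.537% to 15.3% in replicate 1, from 12.8% to 41% in replicate 3 and from 1.68% to 19.6% in the pooled list, so each held the share of the other genes. These intervals and the upper limit cover counting error only. No test was made of the share, since the gene family is described in 1 group of libraries.

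A summit in both replicates was found at 1 of 33 V-ATPase starts, that of Vha68-2, against 6.18% of the other genes. When summits inside the gene were also counted, Vha16-1 joined it, giving 2 of 33, against 9.13% of the others. Among the 2060 highest peaks of replicate 3, Vha16-1 and Vha68-2 were counted, 2 of 33 against 8.77%. At a q-value of at most 0.05 in replicate 3, Vha16-1 remained, 1 of 33 against 2.69%. That 1 gene is 3.03%, close to the share of the others. Under the other 3 rules the V-ATPase share was lower, but its 95% Wilson interval held the share of the others each time. The interval ran from 0.537% to 15.3% for starts with a summit in both replicates. It ran from 1.68% to 19.6% with summits inside the gene, and likewise among the 2060 highest peaks. For scale, 2 other families of large complexes were counted the same way. Of 48 proteasome subunit genes 8 were counted in replicate 3, or 16.7% against 27.3% of the genes outside the V-ATPase. None of the 48 was counted in replicate 1, the pooled list or the optimal list, which allows a share of up to 6.25% in each. The shares of the genes outside the V-ATPase were 6.73%, 11.1% and 0.991% in these lists. Of 92 cytosolic ribosomal protein genes 21 were counted in replicate 3, or 22.8%, 1 in replicate 1, or 1.09% against 6.73%, and 5 in the pooled list, or 5.43% against 11.1%. None of the 92 was counted in the optimal list, which allows up to 3.26%, against 0.991%.

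**Figure D1:**
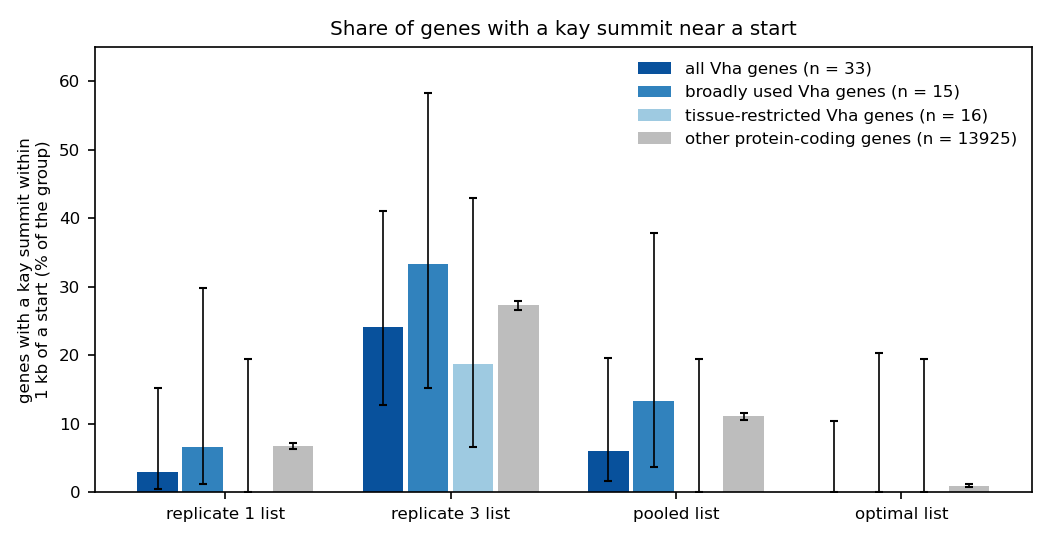
Bars give the percentage of genes with a kay summit within 1 kb of a start in each of the 4 peak lists, for all V-ATPase genes, the broadly used and the tissue-restricted ones, and the other protein-coding genes, with 95% Wilson intervals as error bars. In replicate 3 the V-ATPase genes stood at 24.2% and the other genes at 27.3%, and in the optimal list no V-ATPase gene was counted.

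Genes with more annotated starts have more chances to be counted. Of the 33 V-ATPase genes 25 have 1 start, a share similar to that of the other genes, 10234 of 13925. Among genes with 1 start, 4 of 25 V-ATPase genes or 16% were counted in replicate 3, against 21% of the others. Among genes with 2 starts, 2 of 6 V-ATPase genes were counted, or 33.3%, against 37.1%. Vha55 (B subunit) was the V-ATPase gene with 3 or 4 starts and Vha68-2, with 5, the one with 5 or more, and both were counted. The share of other genes counted was 59.3% with 3 or 4 starts and 77.2% with 5 or more. In replicate 1 Vha68-2 was counted in a class in which 37.6% of the other genes were.

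**Figure D2:**
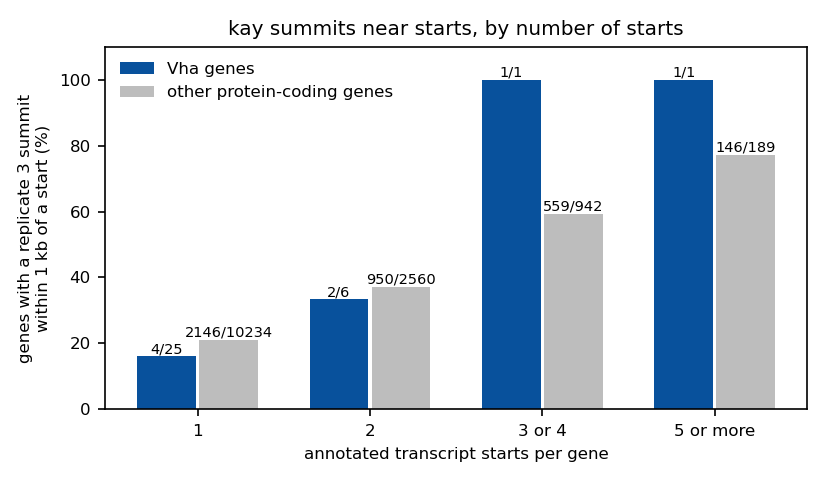
Bars give the percentage of genes with a replicate 3 summit within 1 kb of a start, by the number of annotated starts of the gene, for V-ATPase genes and other protein-coding genes, with the counts above the bars. The share rose with the number of starts in the other genes, and the V-ATPase bars for 3 or 4 starts and for 5 or more rest on 1 gene each.

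Vha68-2 (FBgn0263598, 2L 12974322 to 12978607, plus strand) encodes an A subunit, which holds the catalytic ATP sites of V1, and it was the V-ATPase gene with a summit at a start in both replicates. Its 5 starts lie over 1080 bp. The replicate 1 summit at 12975261 had a signal of 25, rank 1147 of 2060 and a q-value of 0.586. The replicate 3 summit at 12975252 had a signal of 39.9, rank 1026 of 13835 and a q-value of 0.182. The 2 summits lay 9 bp apart, 75 and 66 bp downstream of the start before the last, in the intron between the last 2 starts. The pooled list placed a summit at 12975253 with a signal of 63, rank 844 of 4350 and a q-value of 0.24. The position was thus shared by both replicates, while no list gave it a q-value of 0.05 or less. Being counted in both was common, since of the 937 other protein-coding genes counted in replicate 1, 861 were also counted in replicate 3. The TCACGTGA of the Vha68-2 sequence printed above spans 12975303 to 12975310, and its centre lay 45.5 bp from the replicate 1 summit and 54.5 bp from the replicate 3 summit. Its first base lies 99 bp before the last start. Among all summits within 1 kb of a protein-coding start, TCACGTGA lay within 100 bp of 3 of 996 in replicate 1, or 0.301%. In replicate 3 it was 7 of 5150, or 0.136%. Both counts include the Vha68-2 summit.

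Replicate 3 gave Vha68-2 further, weaker summits. The next, at 12975460 in a 5′ UTR exon 58 bp downstream of the last start, had a signal of 28.4 and rank 2520, and in the pooled list the same base had a signal of 34.2 and rank 3659 of 4350. A summit 784 bp upstream of the first start had a signal of 13.6 and rank 13767, close to the foot of the list. A summit at 12978141 in the 3′ UTR had a signal of 21 and rank 5322. That last summit is also the one counted for the next gene, Vha68-3, a paralogous A subunit of restricted use, since it lies 645 bp upstream of the Vha68-3 start. Vha68-1, the remaining A subunit gene, had no summit within 1 kb of its start. A replicate 3 summit in its 3′ UTR, with a signal of 43.2 and rank 830, lay 3305 bp from that start and 167 bp from the start of Yip1d1.

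**Figure D3:**
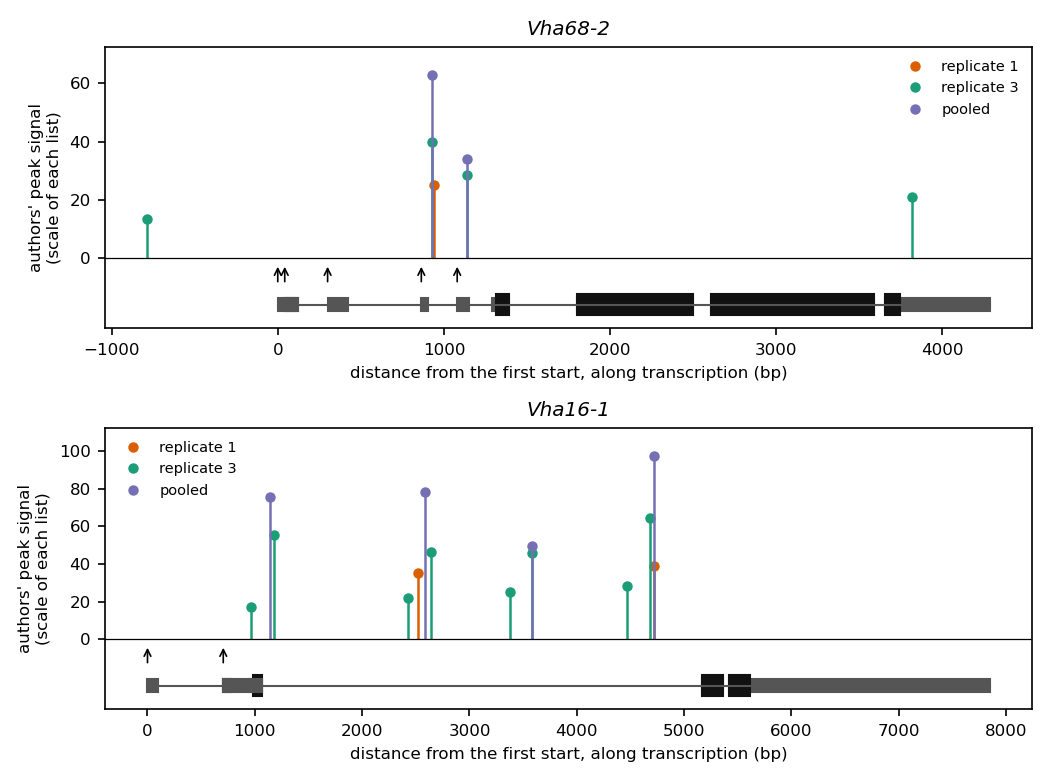
Vertical lines mark kay summits along Vha68-2 and Vha16-1, at their distance in bp from the first start, and their height is the authors' peak signal on each list's own scale. Below them, arrows mark annotated starts, wide black boxes coding exons and narrower grey boxes UTRs. At Vha68-2 the summits of replicate 1, replicate 3 and the pooled list stand together between the last 2 starts, and at Vha16-1 they are spread along the long intron.

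Of the V1 genes other than those of the A subunit, Vha55 was the one counted at a start. Vha55 (FBgn0005671, 3R 12623762 to 12627829, minus strand) encodes the B subunit, which pairs with A in the ATPase hexamer. Its replicate 3 summit at 12628683 had a signal of 27.8, rank 2652 and a q-value of 0.415, 854 bp upstream of a Vha55 start. It lies in an intron of the neighbouring gene Snx3, whose start is nearer, at 652 bp. The TGACTCA printed above for Vha55 spans 12628780 to 12628786, its centre 100 bp from that summit. A further replicate 3 summit in the Vha55 3′ UTR had a signal of 18.7 and rank 6952. Replicate 1 and the pooled list had no summit within 1 kb of Vha55, their nearest ones being 37454 and 37463 bp away.

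The genes for the C, D, E, F, G and H subunits of V1 had no summit within 1 kb of a start in any list. For Vha44 (C subunit) the nearest replicate 3 summit lay 6340 bp away, for Vha26 (E subunit, a part of the stalk that holds V1 in place) 8781 bp, for the F subunit genes Vha14-1 and Vha14-2 7642 and 8232 bp, for Vha13 (G subunit) 15198 bp and for VhaSFD (H subunit) 5092 bp. VhaSFD was the V-ATPase gene closest to a peak of the optimal list, at 6982 bp. That peak lies in an intron of Cyt-c-p, the gene of a cytochrome c, 912 bp from its start, with a signal of 171 and rank 91 of 199. Among the D subunit genes, which encode the central shaft, Vha36-1 and Vha36-3 had their nearest replicate 3 summits at 11482 and 10948 bp. Vha36-2 had one at 1872 bp, with a signal of 44.4 and rank 767 in replicate 3 and a signal of 47.6 and rank 1665 in the pooled list. It lies between genes, 244 bp from a start of Cam, the calmodulin gene, so its nearest start is not that of a V-ATPase gene.

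Vha16-1 (FBgn0262736, 2R 6625242 to 6633090, minus strand) encodes the c subunit of the proton-carrying ring, and it held the highest-ranked summits of any V-ATPase gene in all 3 lists that had one. The highest in replicate 3 had a signal of 64.6, rank 270 of 13835 and a q-value of 0.00924, and lay 4684 bp downstream of the first start. In replicate 1 the highest had a signal of 39.2, rank 376 of 2060 and a q-value of 0.147, at 4722 bp, 38 bp from the replicate 3 summit. In the pooled list it had a signal of 97.7, rank 283 of 4350 and a q-value of 0.0406, also at 4722 bp. The nearest protein-coding start to each was that of CG33919. It lay 3829 bp away in replicate 3 and 3791 bp in replicate 1 and the pooled list. The nearest Vha16-1 start was 3978 bp away in replicate 3 and 4016 bp in replicate 1 and the pooled list. All of these summits lie in a 4105 bp intron between the first coding exon and the next, which was also where most other summits of the gene fell.

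That intron held 2 summits in replicate 1, 7 in replicate 3, 4 in the pooled list and none in the optimal list. The 7 of replicate 3 came from 4 stretches of overlapping peaks. The stretch nearest to the starts had a replicate 3 summit at 1178 bp, with a signal of 55.4, rank 407 and a q-value of 0.0429. This summit, 472 bp downstream of the nearer of the 2 starts, is the higher of the summits for which the gene was counted in replicate 3. The pooled list had a summit there at 1138 bp, with a signal of 75.7 and rank 528, and replicate 1 had none. In the second stretch, replicate 3 had summits at 2426 and 2642 bp with signals of 22.1 and 46.3, replicate 1 a summit at 2522 bp with a signal of 35.4 and rank 494, and the pooled list one at 2585 bp with a signal of 78.3 and rank 475. A TGACTCA lay 76 bp from the replicate 1 summit, 44 bp from the higher replicate 3 summit and 13 bp from the pooled one. The third stretch, around 3586 bp, had a signal of 45.7 and rank 718 in replicate 3 and of 49.6 and rank 1525 in the pooled list, with no summit in replicate 1. Its weaker replicate 3 summit, at 3377 bp, had a signal of 25.3 and rank 3367. The fourth stretch holds the highest summit described above and, in replicate 3, one at 4468 bp with a signal of 28.6 and rank 2480. GAGAGAG, the site of GAGA factor, lay within 100 bp of its highest summit in all 3 lists. The pooled list draws on both replicates and is not a further observation. Of all summits inside a protein-coding gene or within 1 kb of a start, GAGAGAG lay at 7.49% in replicate 1, 4.36% in replicate 3 and 6.24% in the pooled list.

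With another summit in its 5′ UTR, at 964 bp with a signal of 17.2 and rank 8353, Vha16-1 held 8 replicate 3 summits in all. Of the 13925 other protein-coding genes, 2.33% held as many inside the gene. At least 2 replicate 1 summits, as in Vha16-1, lay inside 2.5% of the others, and at least 4 pooled summits inside 1.9%. Longer genes have more room for summits, and Vha16-1 spans 7849 bp. The summits of replicate 3 came in pairs spaced 214, 216, 209 and 216 bp apart, whose peaks overlap, with a median peak width of 424 bp in that list. In replicate 3, 16.6% of all nuclear summits had another within 250 bp, and whether the 2 summits of a pair are separate binding positions was not tested.

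Among the other V0 genes, Vha100-2 had the highest-ranked summit at a start. Vha100-2 (FBgn0028670, 3R 18390323 to 18399169, minus strand) encodes the broadly used a subunit, which carries the proton half-channels. In replicate 3 it had a summit at 18397190, 262 bp upstream of one of its starts, with a signal of 29.1, rank 2372 and a q-value of 0.383. Another, at 18397421, had a signal of 25.4 and rank 3342. Both lie in a Vha100-2 intron that also holds the 5′ UTR of Vti1b, and the Vti1b start is nearer to each, at 195 and 426 bp. Further downstream, an intronic summit at 18394478 had a signal of 26.8, rank 2930 and a q-value of 0.44, 2450 bp from a start. The TGACTCA in the Vha100-2 sequence printed above spans 18394445 to 18394451, 30 bp from this summit. Its neighbour at 18394680 had a signal of 19.3 and rank 6466. Replicate 1 and the pooled list had no summit in Vha100-2 or within 1 kb of its starts.

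The paralogous a subunit gene Vha100-4 lies next to Vha100-2, and a replicate 3 summit 486 bp upstream of its start had a signal of 18.8, rank 6864 and a q-value of 0.726. Vha100-5, Vha100-3 and Vha100-1, the last known for its role at synapses, had their nearest replicate 3 summits at 2739, 25886 and 42146 bp. The distance for Vha100-1 was the longest of the 33 genes. The d subunit, which couples V1 to the ring, has 2 genes. VhaAC39-1 (X) had a replicate 3 summit 12 bp upstream of its start, the closest of any V-ATPase gene, though with a signal of 15.6, rank 10447 and a q-value of 0.871. A second summit of this gene, in the 3′ UTR, had a signal of 19.1 and rank 6619. VhaAC39-2 had a summit 460 bp upstream, with a signal of 14.4, rank 12363 and a q-value of 0.922. None of the summits of Vha100-4, VhaAC39-1 and VhaAC39-2 had a counterpart within 1 kb in replicate 1 or the pooled list.

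The remaining V0 genes and both accessory genes were not counted. The c subunit paralogs Vha16-2, Vha16-3, Vha16-4 and Vha16-5 had their nearest replicate 3 summits at 2356, 3928, 1824 and 11622 bp, against 258 bp for Vha16-1. The summit near Vha16-4 had a signal of 14.7 and rank 11814, and lies in a coding exon of CG15614. The genes of c″, another ring subunit, VhaPPA1-1 and VhaPPA1-2, had theirs at 6745 and 10529 bp. Those of the small membrane subunit e lay at 28532 bp for VhaM9.7-a, 2343 bp for VhaM9.7-b, 7315 bp for VhaM9.7-c and 5414 bp for VhaM9.7-d. VhaAC45, an accessory protein of the V0 membrane domain, had its nearest at 9075 bp and VhaAC45RP at 11224 bp.

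In all, 25 of the 33 genes had no summit within 1 kb of a start in any list, and 9 had no replicate 3 summit within 10 kb. The 1 kb limit falls in a gap, since in replicate 3 the farthest gene inside it was Vha55 at 854 bp and the closest outside it Vha16-4 at 1824 bp. In replicate 1, Vha16-1 lay outside it at 1816 bp. The median distance from a V-ATPase gene to the nearest summit was 5414 bp in replicate 3, against 4435 bp for other nuclear protein-coding genes. It was 41755 bp against 31320 bp in replicate 1, 15818 bp against 18423 bp in the pooled list and 190031 bp against 258146 bp in the optimal list. The V-ATPase median was thus the longer one in each replicate list and the shorter one in the pooled and optimal lists. Among genes that were counted, the median rank of the highest summit was 3987 in replicate 3 for the 8 V-ATPase genes and 4022 for the 3801 others.

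**Figure D4:**
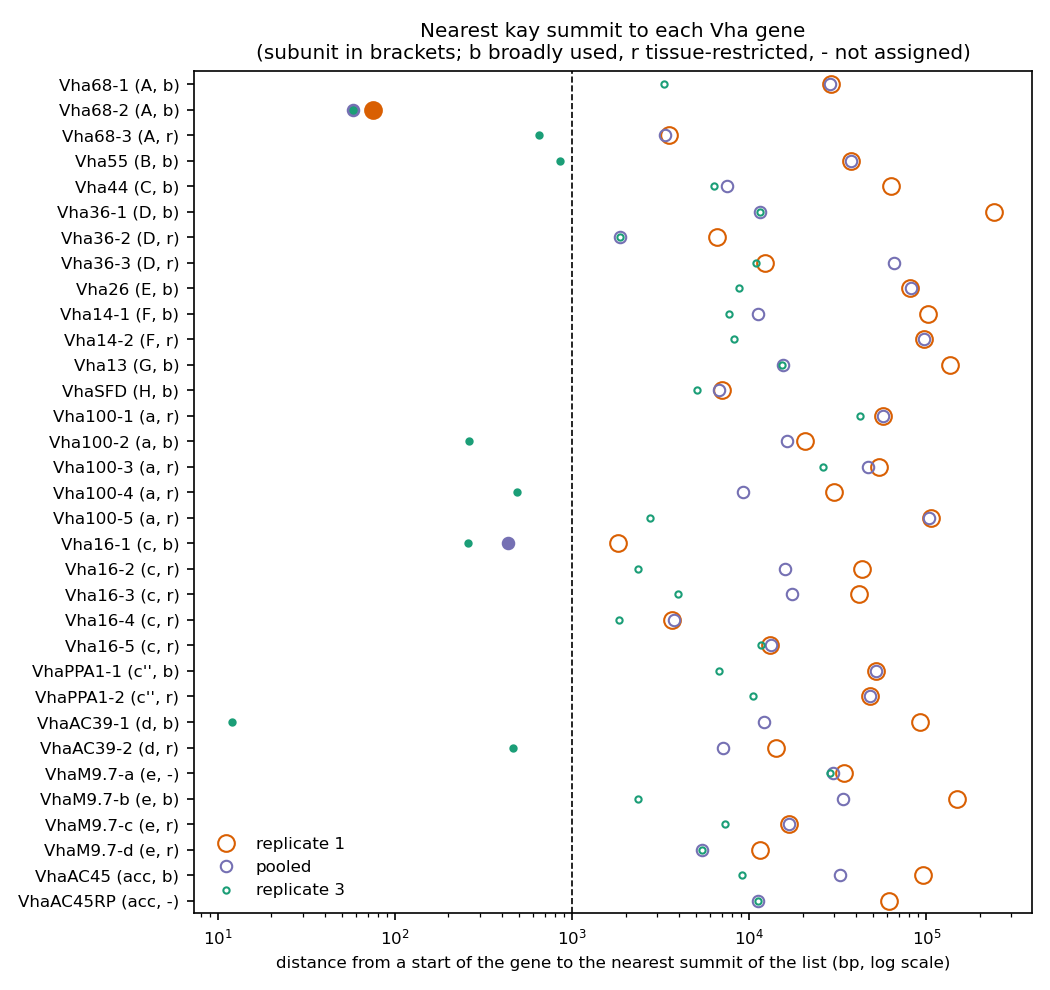
Each row is a V-ATPase gene, with its subunit and use in brackets, and points give the distance in bp on a log axis from a start of the gene to the nearest summit of replicate 1 (large), the pooled list (middle-sized) and replicate 3 (small). Filled points lie within the dashed 1 kb limit. At Vha68-2 points of all 3 lists lie inside it, at Vha16-1 those of replicate 3 and the pooled list, and at 6 other genes replicate 3 alone.

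The broadly used and tissue-restricted genes were compared by classes taken from general knowledge of the fly genes and not from these libraries. The classes were set with earlier results of these data known. Of 15 broadly used genes 5 were counted in replicate 3, or 33.3%, against 3 of 16 tissue-restricted ones, or 18.8%. The 95% Wilson intervals were 15.2% to 58.3% and 6.59% to 43%, and each held the other class's share. The broadly used genes counted were Vha68-2, Vha55, Vha100-2, Vha16-1 and VhaAC39-1, and the tissue-restricted ones Vha68-3, Vha100-4 and VhaAC39-2. In replicate 1 it was 1 of 15 against 0 of 16, in the pooled list 2 of 15 against 0 of 16 and in the optimal list 0 in both. A count of 0 of 16 allows a share of up to 18.8%. The difference in replicate 3 was 14.6 percentage points. It was 1.25 points when the nearest protein-coding start had to be that of the V-ATPase gene, with 3 of 15 against 3 of 16, because the summits of Vha55 and Vha100-2 lie nearer to the starts of Snx3 and Vti1b. At this number of genes no difference between the classes could be seen beyond counting error. With summits inside the gene also counted, 2 of 15 broadly used genes had one in both replicates, Vha68-2 and Vha16-1. Of the tissue-restricted genes it was 0 of 16, and of the other protein-coding genes 9.13%. The 95% Wilson intervals, 3.74% to 37.9% and 0% to 19.4%, overlap, and both hold the share of the other protein-coding genes.

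The ranks of the summits spread widely in both classes. In the broadly used genes the replicate 3 ranks of the highest summit within 1 kb were 407 for Vha16-1, 1026 for Vha68-2, 2372 for Vha100-2, 2652 for Vha55 and 10447 for VhaAC39-1. In the tissue-restricted genes they were 5322 for Vha68-3, 6864 for Vha100-4 and 12363 for VhaAC39-2. Of the 4 highest-ranked genes all were broadly used, but the summits of Vha55 and Vha100-2 lie nearer to the starts of Snx3 and Vti1b. The ranges of the classes also overlap, since VhaAC39-1 ranked below Vha68-3 and Vha100-4. The median distance to the nearest replicate 3 summit was 5092 bp in the broadly used genes, against 4671 bp in the tissue-restricted ones.

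The AP-1 site TGACTCA, counted on either strand and wholly within 100 bp of a summit, lay at none of the 12 replicate 3 summits within 1 kb of a V-ATPase start. It lay at 4.14% of the 5150 replicate 3 summits within 1 kb of any protein-coding start, so that few sites would be counted among 12 at that share. With summits inside the genes added, it was at 2 of 23, in the introns of Vha16-1 and Vha100-2, against 3.67% of the 11977 replicate 3 summits inside a protein-coding gene or within 1 kb of a start. In replicate 1 it was at 1 of 3 such summits, in the Vha16-1 intron, where replicate 3 also had a summit with the site, against 7.55% of the 1815 such summits of replicate 1. TGACGTCA, a related bZIP site, was at none of the 23 in replicate 3, against 0.66% of all summits in genes or at starts. TATCGATA, the site of the factor DREF, was also at none of them, against 1.52%. The E-box CACGTG was at 1 of the 12, the Vha68-2 summit, where it is the centre of TCACGTGA, against 2.19% of all summits at protein-coding starts. GAGAGAG was at 1 of the 12, the second summit upstream of Vha100-2, against 5.79%.

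The same strings were counted on both strands from 250 bp before to 50 bp after the 5′-most start of each gene. TGACTCA was there in 1 of 33 V-ATPase genes, Vha36-2, or 3.03%, against 2.49% of 13912 other nuclear protein-coding genes, and no list had a summit within 1 kb of the start of that gene. CACGTG was in 3 of 33, Vha44, VhaAC45RP and VhaM9.7-d, or 9.09%, against 4.23%. Of these Vha44 had the longer TCACGTGA, which was in 0.165% of the others. None of these 3 genes had a kay summit within 1 kb of a start. GAGAGAG was in Vha100-2 and Vha100-5, or 6.06% against 5.87%, and TATCGATA in Vha55 and VhaSFD, or 6.06% against 9.37%. TGACGTCA was in none of the 33, against 0.438%. A match is a description of the sequence, and no string was tested for enrichment.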

How the data were processed

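Peak lists of kay ChIP-seq in 2 libraries of 1 group were used on dm6. Per the deposited file listing, the authors called each replicate list on that library's alignments with 1 control file, and the pooled list on both libraries. The sources used here do not give the aligner, the peak caller with its settings, or the threshold behind the optimal list. The authors' signal per peak was used to rank peaks within a list, and the deposited −log10 q-value was converted to q. Summits are the deposited offsets from the peak start. Starts came from Ensembl release 115, for protein-coding genes on 2L, 2R, 3L, 3R, 4, X and the mitochondrial chromosome, and sequence from the Release 6 genome, on the same coordinates (1-based). Lists on dm3 were not used here. Shares carry 95% Wilson intervals, and no set was tested. Computation used Python 3.11.15, numpy 2.4.6, pandas 2.3.3 and scipy 1.17.1, and the assignment of summits was checked on simulated data. Genes described in full had a summit within 1 kb of a start in the replicate 1, pooled or optimal list, or among the highest 3000 of replicate 3. From each list of related genes, up to 4 with the highest replicate 3 ranks were named. The members, use classes and lists were chosen with earlier results of these data known. Vha16-4 was added to the tissue-restricted class, and the intronic summits of Vha16-1 and the printed sequences were chosen, after the values were seen. Alternatives changed the distance, the starts, the peaks kept and the motif window.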

Additional observations from a re-analysis of the deposited data

How the results depend on the processing

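In replicate 1 the count of 1 became 2 within 2 kb, 2 with summits inside the gene, and 0 at a q-value of at most 0.05. In replicate 3 the count of 8 became 2 within 250 bp, 1 at a q-value of at most 0.05 and 2 among its 2060 highest peaks, and it ranged from 6 to 10 under the other alternatives. In the pooled list the count of 2 became 1 within 250 bp, 1 with the 5′-most start and 0 at a q-value of at most 0.05. The optimal list had 0 under each of the 6 alternatives run. The count of 1 in both replicates became 2 within 2 kb, and from a single replicate it was 1 to 8. The broadly used minus tissue-restricted difference of 14.6 points became 2.08 within 2 kb, 1.25 when the nearest start had to be that of the V-ATPase gene and, added after the values were seen, 6.67 without replicate 3. The 0 summits with TGACTCA in replicate 3 became 1 with a window of 250 bp. Stricter rules keep fewer peaks by construction, and any other cause was not tested. No paired analysis was possible because there is 1 group. With read depth unknown and 33 genes, a small departure from the other genes could not be seen.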

Other observations

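Genes that work beside the V-ATPase were counted by the same rule. Their lists were drawn up from general knowledge, but with earlier results of these data known, so their shares are description only. Of 17 matched genes of V-ATPase assembly and regulation, 6 had a summit within 1 kb of a start in replicate 3, or 35.3%, against 27.3% of protein-coding genes outside the V-ATPase, and 3 in replicate 1, or 17.6% against 6.73%. None was counted in the optimal list, which allows up to 17.6%, against 0.991%. The highest was Mitf, with an intronic summit 540 bp downstream of a start that had rank 548 and a signal of 50.2 in replicate 3 and rank 149 and a signal of 59.4 in replicate 1. It was followed by sky, a regulator of synaptic vesicle trafficking, at rank 1246, Lamtor3, a subunit of the Ragulator complex, at rank 2315, and rogdi at rank 3239, all in replicate 3. The TCACGTGA near the Vha68-2 summits is the core of the site known for the family of Mitf, and whether Mitf is bound there was not measured.

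Of 24 matched lysosome genes, 8 were counted in replicate 3, or 33.3% against 27.3%, and 5 in replicate 1, or 20.8% against 6.73%. None was counted in the optimal list, which allows up to 12.5%, against 0.991%. They were led by Atg8a, an autophagosome membrane protein, at rank 307 in replicate 3 and 838 in replicate 1, and by cathD, a lysosomal protease, at ranks 563 and 303. Behind them in replicate 3 came ref(2)P, an autophagy receptor, at rank 721 and Npc1a, a sterol transporter, at rank 3887. Of 11 matched endosomal genes, 3 were counted in replicate 3, or 27.3%, the same share as in the genes outside the V-ATPase. In replicate 1 there was 1, or 9.09% against 6.73%, and in the optimal list 2, or 18.2% against 0.991%. Those 2 were Rab5 and Rab7, GTPases of early and late endosomes, at ranks 65 and 155 of 199, with TGACTCA within 100 bp of the replicate 3 summit of each, and Rab7 had no summit within 1 kb of a start in replicate 1. Vps8 had rank 5480 in replicate 3. These lists are short, and no test was made of their shares.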
